A study of Saccharomyces cerevisiae with 18 samples.

Results

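The genes described are 10 members of the yeast phosphate starvation (PHO) response: PHO5, PHO84, PHO89, PHO8, SPL2, VTC1, VTC3, VTC4, PHM6 and PHM8, of 5656 genes that have a probe set to themselves on the array. They were taken by symbol, as every probe set annotated to a single gene of that list, which gave 11 probe sets, since VTC4 has a brighter and a dimmer one. Measurements were hybridisation signals in arbitrary units on 18 Affymetrix YG_S98 arrays of Saccharomyces cerevisiae total RNA. In all, 10 of the 11 probe sets, covering 9 of the 10 genes, passed the filter for testing, and PHM6 did not.

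The genotypes were set up around RPD3, which encodes a histone deacetylase, and the N-terminal tails of histones H3 and H4, whose lysines are acetylated. The H3 double mutant joined an RPD3 deletion to H3delta(1-28) (strain NSY459, n = 2), and the H4 double mutant joined it to H4(K5,8,12,16Q) (RMY492, n = 2). The single mutants were the RPD3 deletion (NSY430, n = 2), the H3 tail deletion H3delta(1-28) (NSY458, n = 2), the H3 lysine substitution in strain CLY460, H3(K4,9,14,18,23,27Q) (n = 3), the H4 tail deletion H4delta(2-26) (NSY438, n = 2) and the H4 lysine substitution H4(K5,8,12,16Q) (RMY491, n = 2). Wild type was NSY429 (n = 3). In the substitutions glutamine (Q) stands in place of the listed lysines (K). Each genotype was represented by 1 strain, so a strain and its genotype cannot be told apart. The sources used here do not give the medium, the phosphate supply or whether replicate arrays are separate cultures. The p-values therefore cover only array-to-array spread, and that spread may be technical.

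In budding yeast the PHO pathway answers a shortage of inorganic phosphate. When phosphate is short, the inhibitor Pho81 blocks the cyclin-kinase pair Pho80-Pho85, and the transcription factor Pho4 then stays in the nucleus and, with Pho2, activates genes that take up, scavenge and store phosphate. The PHO5 promoter is a classic model of chromatin control: positioned nucleosomes cover it while the gene is off and are lost when the gene is induced.

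RPD3 itself gave the label check. Its signal was 30.2 and 65.0 in the H3 double mutant, 70.1 and 80.7 in the H4 double mutant and 25.8 and 9.40 in the RPD3 deletion. On the 12 arrays labelled with an intact RPD3 it lay between 493.6 and 1001. Signals at or under 140.2, the 25th percentile of all values, were treated as background, and every array labelled with the deletion was under that floor for RPD3.

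Several arrays bear on the results that follow. The 3 wild-type arrays, given in the order array 1, 2 and 3, came from days B, C and H, with letters standing for the sampling days of the labels. They differed widely for this pathway: the highest wild-type signal was 4.85 times the lowest for PHO5, 4.80 times for PHO84 and 3.64 times for PHM8. Wild-type array 2 was the highest of the wild-type arrays for 8 of the 11 probe sets, and it was the highest of all 18 arrays for PHO84, VTC1, VTC3 and the brighter VTC4 probe set. For PHO5, PHO8 and PHM8 it was the lowest of the wild-type arrays, and for PHO5 and PHM8 the lowest of all 18. In the H3 double mutant, the H3 tail deletion and the H4 tail deletion, array 2 carried a header with a strain other than the labelled one. Across probe sets, that array of the H3 double mutant correlated at 0.958 with the other array of its group. With the mean of the 3 arrays of the H3 lysine substitution, the closest of the other groups, it correlated at 0.964. The value for the group of the strain in its header is not given here. A single array and a mean of several are not a like comparison. RPD3 was 65.0 on that array, against 685.4 to 799.0 in the H3 lysine substitution. The other two were closest to their own group, at 0.977 for the H3 tail deletion and 0.982 for the H4 tail deletion.

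**Figure D1:**
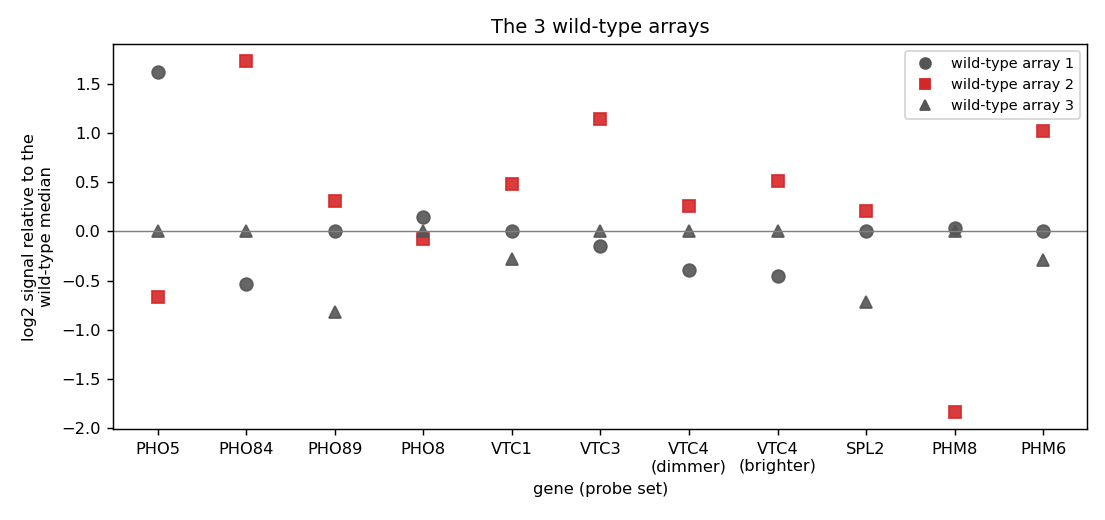
Signal of each of the 11 probe sets on the 3 wild-type arrays, as the log2 difference from the median of the 3 (y axis), by gene (x axis). Red squares are array 2, the highest of the 3 for 8 probe sets and the lowest for PHO5, PHO8 and PHM8. All PHM6 values are under the background floor.

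PHO5, which encodes the repressible acid phosphatase secreted into the cell wall and periplasm, was the member with the largest range, 16.3-fold over the 18 arrays. Its signal was 10020 and 7381 in the H3 double mutant, 16838 and 17688 in the H4 double mutant and 8715 and 12194 in the RPD3 deletion. It was 6406 and 5611 in the H3 tail deletion, 4768, 4162 and 3850 in the H3 lysine substitution, 3405 and 3479 in the H4 tail deletion and 3691 and 3472 in the H4 lysine substitution. In wild type it was 5262, 1084 and 1716. All 6 arrays with RPD3 deleted, at 7381 to 17688, were thus above all 12 arrays with RPD3 intact, at 1084 to 6406. Of the 7851 tested probe sets, 0.382% had every RPD3-deleted array above every intact one, and PHO5 was the single member among them. Ordered by mean, the H4 double mutant stood highest, followed by the RPD3 deletion and the H3 double mutant, whose arrays overlap each other, then the H3 tail deletion, the H3 lysine substitution, the H4 lysine substitution and the H4 tail deletion. Arrays of the last pair overlap, and the spread of the wild-type arrays covers both as well as the H3 lysine substitution.

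**Figure D2:**
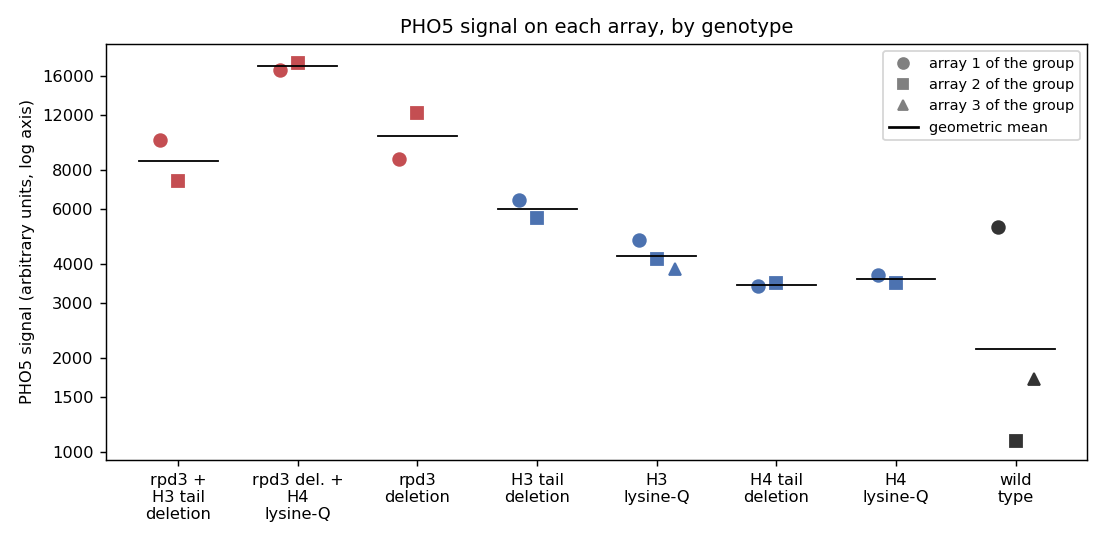
PHO5 signal in arbitrary units on a log axis (y) for each array of the 8 genotypes (x). Each symbol is 1 array, the line is the geometric mean of the group, and red marks genotypes with RPD3 deleted (rpd3 + H3 tail deletion is the H3 double mutant, lysine-Q a lysine substitution). The 6 red arrays lie at 7381 to 17688, above the 12 others.

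Against wild type, PHO5 rose in 4 of the 7 mutants at a Benjamini-Hochberg adjusted p under 0.05 over all tested probe sets in limma, the threshold for every call below. It was 4.02-fold higher in the H3 double mutant (log2 difference 2.01 ± 0.44, SE, adjusted p = 0.00500), 8.07-fold higher in the H4 double mutant (3.01 ± 0.44, adjusted p = 0.000565), 4.82-fold higher in the RPD3 deletion (2.27 ± 0.44, adjusted p = 0.00350) and 2.80-fold higher in the H3 tail deletion (1.49 ± 0.44, adjusted p = 0.0381). The log2 differences of 0.99 in the H3 lysine substitution (adjusted p = 0.0820), 0.69 in the H4 tail deletion (adjusted p = 0.278) and 0.74 in the H4 lysine substitution (adjusted p = 0.237) were not called. These comparisons share the 3 wild-type arrays, and PHO5 calls turned on them in both directions. Without wild-type array 1, where PHO5 was highest, PHO5 was called higher also in the H3 lysine substitution (1.64, adjusted p = 0.000220), the H4 tail deletion (1.34, adjusted p = 0.00124) and the H4 lysine substitution (1.39, adjusted p = 0.00137). Without array 2, where PHO5 was lowest, the same 3 groups differed by 0.50 (adjusted p = 0.353), 0.20 (adjusted p = 0.774) and 0.25 (adjusted p = 0.713). In the groups called with all arrays, the differences without array 2 were 1.52 in the H3 double mutant (adjusted p = 0.0132), 2.52 in the H4 double mutant (adjusted p = 0.000984) and 1.78 in the RPD3 deletion (adjusted p = 0.00743), and the H3 tail deletion was no longer called (1.00, adjusted p = 0.116).

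Of the PHO5 calls, that of the H3 tail deletion was the least stable, with 13 of 32 other settings keeping it. Leaving out any 1 of several arrays ended it: wild-type array 3 (1.33, adjusted p = 0.0942), either array of its own group (1.39 and 1.58, adjusted p = 0.167 and 0.134) and, with the value unmoved at 1.49, array 2 of the H3 lysine substitution or any array of the H4 groups (adjusted p between 0.0518 and 0.0551). In the RPD3 deletion the call ended without its array 2 (2.03, adjusted p = 0.0534). On day B, the day shared with wild type, the single arrays differed by 0.49 for the H3 double mutant, 1.21 for the RPD3 deletion and 0.09 for the H3 tail deletion, each against wild-type array 1. The actin 3' to 5' ratio, a measure of RNA integrity, was 1.76 and 1.53 in the H3 double mutant, 1.68 and 1.66 in the RPD3 deletion and 1.85 and 1.44 in the H3 tail deletion, against 1.41, 1.37 and 1.37 in wild type. With it as a covariate PHO5 was not called in the H3 tail deletion (1.39, adjusted p = 0.114), and beyond that its part was not tested. With day as a block the PHO5 differences were 0.68 in the H3 double mutant (adjusted p = 0.139), 0.95 in the RPD3 deletion (adjusted p = 0.0848) and 0.16 in the H3 tail deletion (adjusted p = 0.815), so that PHO5 was not called in these 3 groups. The H4 double mutant, both lysine substitutions and the H4 tail deletion had no day in common with wild type, and there genotype and day cannot be told apart. With chip lot as a block PHO5 was not called in either double mutant. Of all probe sets, 1708 were called in the H3 double mutant under that block and 154 in the H4 double mutant. When only the arrays of the groups compared were fitted, PHO5 was called in neither double mutant, nor in the RPD3 deletion or the H3 tail deletion.

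The effect of deleting RPD3 on PHO5 was set out in 3 histone backgrounds. With H4 lysines changed, the H4 double mutant was 4.82-fold above the H4 lysine substitution (2.27 ± 0.48, adjusted p = 0.0219), all 4 arrays being of day E, and the groups did not overlap. With the H3 tail deleted, the H3 double mutant differed from the H3 tail deletion by 0.52 ± 0.48 (adjusted p = 0.706), with both of its arrays higher, by 0.65 on day A and 0.40 on day B. Against the RPD3 deletion alone, PHO5 differed by -0.26 in the H3 double mutant and 0.74 in the H4 double mutant (adjusted p = 0.291), neither called with all arrays. Without wild-type array 1, which enters that comparison only through the shared spread, PHO5 was called in the H4 double mutant over the RPD3 deletion. The interaction, which is the effect of the deletion in the mutant background minus its effect in wild type, was -1.75 ± 0.65 for the H3 tail deletion (adjusted p = 0.136) and 0.00 ± 0.65 for the H4 lysine substitution (adjusted p = 1.00). Neither was called. The PHO5 interaction with the H3 tail deletion was -2.40 without wild-type array 1 (adjusted p = 0.00187), the one wild-type array from a day of these groups. It was -1.26 without array 2 (adjusted p = 0.164) and -0.43 with day as a block (adjusted p = 0.510). The call of the H4 double mutant over its single mutant ended when any 1 of its 4 arrays was left out (2.23 to 2.31, adjusted p between 0.101 and 0.133). PHO3, the constitutive acid phosphatase gene that neighbours PHO5 (YBR093C) on chromosome II and resembles it in sequence, was not called in any comparison.

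**Figure D3:**
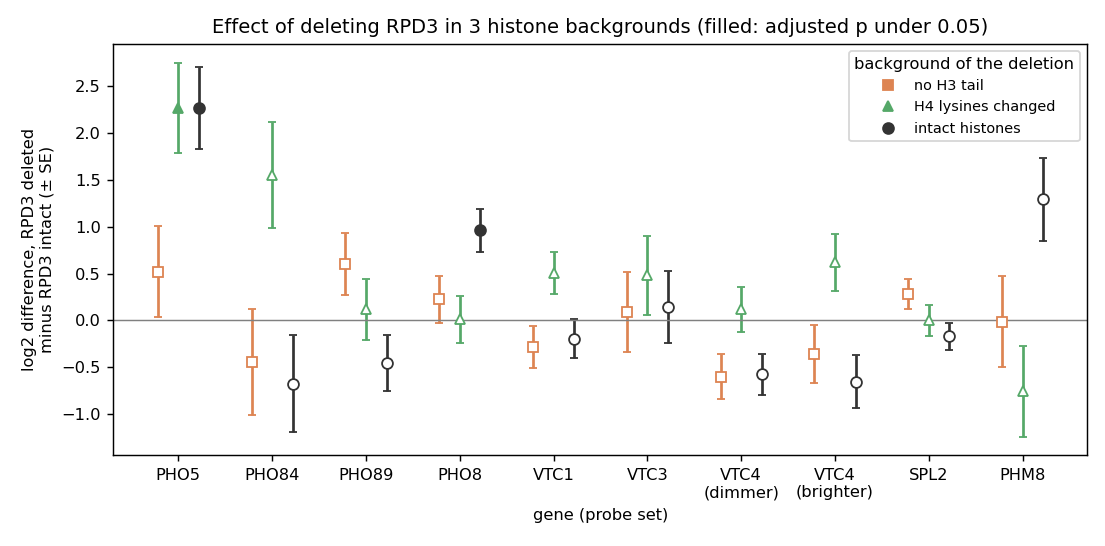
Log2 difference between arrays with RPD3 deleted and RPD3 intact (y, ± SE) for each tested probe set (x), with the H3 tail deleted (squares), H4 lysines changed (triangles) or histones intact (circles). Filled symbols passed an adjusted p of 0.05: PHO5 with H4 lysines changed and with intact histones, both at 2.27, and PHO8 with intact histones.

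PHO84 encodes the high-affinity proton-coupled phosphate transporter of the plasma membrane. Its signal was 1745 and 1227 in the H3 double mutant, 7989 and 7538 in the H4 double mutant and 3539 and 2186 in the RPD3 deletion. It was 1657 and 2381 in the H3 tail deletion, 1162, 1113 and 1437 in the H3 lysine substitution, 1432 and 3459 in the H4 tail deletion and 2811 and 2476 in the H4 lysine substitution, against 2327, 11174 and 3374 in wild type. Every array of the H3 double mutant and of the H3 lysine substitution was thus under the lowest wild-type array. PHO84 was 3.04-fold lower in the H3 double mutant (-1.60 ± 0.52, adjusted p = 0.0374) and 3.61-fold lower in the H3 lysine substitution (-1.85 ± 0.46, adjusted p = 0.0104).

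Wild-type array 2, at 11174, was far above the other wild-type arrays for PHO84. Without it, the H3 lysine substitution remained lower (-1.19, adjusted p = 0.0292), and the H3 double mutant was no longer called (-0.94, adjusted p = 0.103). The H4 double mutant, at 0.80 above wild type with all arrays (adjusted p = 0.280), was called higher without array 2 (1.47, adjusted p = 0.0171). The PHO84 call in the H3 double mutant also ended without either of its own arrays (-1.86 and -1.35, adjusted p = 0.0776 and 0.203) and without either array of the H4 double mutant (adjusted p = 0.0526 and 0.0521, value unmoved). PHO84 in the H4 double mutant stood above every array of the H4 lysine substitution (1.56 ± 0.57, adjusted p = 0.139) and of the RPD3 deletion (1.48, adjusted p = 0.0842), neither called with all arrays. Both were called without wild-type array 2 (adjusted p = 0.0313 and 0.0162), and the first also with day as a block (adjusted p = 0.0184). The interaction of the RPD3 deletion and the H4 lysine substitution was 2.23 ± 0.77 (adjusted p = 0.135), with 2.70 without wild-type array 1 (adjusted p = 0.0408) and 1.57 without array 2 (adjusted p = 0.140). Without array 1 PHO84 was also called lower in the H3 tail deletion (-1.63, adjusted p = 0.0394) and the H4 tail deletion (-1.46, adjusted p = 0.0441). Without array 2 those differences were -0.50 (adjusted p = 0.452) and -0.33 (adjusted p = 0.577).

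Both PHO84 calls ended in fits with a batch term, and why they ended was not tested. In the H3 double mutant PHO84 differed by -0.92 on day B alone, by -0.78 with day as a block (adjusted p = 0.177) and by -1.56 with the actin ratio as a covariate (adjusted p = 0.101). In the H3 lysine substitution it differed by -1.46 with sampling period as a block (adjusted p = 0.205) and by -1.42 with chip lot (adjusted p = 0.294). None of these PHO84 values was called. Sampling period and chip lot as blocks each set the H3 lysine substitution against wild-type array 3 alone. Of all probe sets they called 677 and 430 in that group, against 2004 as reported.

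PHO89 encodes the sodium-coupled phosphate transporter, which works at alkaline pH. Its signal was 1082 and 748.9 in the H3 double mutant, 446.6 and 450.1 in the H4 double mutant and 364.1 and 307.9 in the RPD3 deletion. It was 622.9 and 563.6 in the H3 tail deletion, 900.4, 640.3 and 714.9 in the H3 lysine substitution, 302.0 and 401.9 in the H4 tail deletion and 397.2 and 428.5 in the H4 lysine substitution, against 514.9, 640.2 and 292.6 in wild type. The H3 double mutant was above all wild-type arrays and, with no overlap, above the RPD3 deletion. PHO89 was 1.96-fold higher in the H3 double mutant than in wild type (0.97 ± 0.30, adjusted p = 0.0305) and 2.69-fold higher than in the RPD3 deletion (1.43 ± 0.33, adjusted p = 0.0184), by 1.57 on day A and 1.28 on day B. In this group PHO84 fell and PHO89 rose against the same wild-type arrays.

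Of 32 other settings, 22 kept the PHO89 call of the H3 double mutant over wild type and 28 kept that over the RPD3 deletion. The PHO89 call over wild type ended without wild-type array 3 (0.65, adjusted p = 0.0736) and without array 1 of the H3 double mutant (0.71, adjusted p = 0.222). It also ended with day as a block (0.65, adjusted p = 0.171) and with the actin ratio as a covariate (0.95, adjusted p = 0.0859), and on day B alone PHO89 differed by 0.54. The call over the RPD3 deletion ended without array 1 of the H3 double mutant (1.16, adjusted p = 0.0776) and without array 2 of the RPD3 deletion (1.31, adjusted p = 0.144). In the H3 lysine substitution PHO89 differed from wild type by 0.70 (adjusted p = 0.0700), called only without wild-type array 2 among the arrays left out (0.94, adjusted p = 0.0300). With sampling period as a block and with chip lot as a block, PHO89 was called there. Both blocks set the H3 lysine substitution against wild-type array 3 alone, whose PHO89 signal, 292.6, was the lowest of all 18 arrays. No other member was called in that group under either block. The PHO89 interaction of the RPD3 deletion and the H3 tail deletion was 1.06 (adjusted p = 0.174), and 1.38 without wild-type array 3 (adjusted p = 0.0474). Without that array PHO89 was also called lower in the H4 tail deletion (-0.72, adjusted p = 0.0433). Without array 2 the interaction was 0.82 (adjusted p = 0.241) and the H4 tail deletion differed by -0.16 (adjusted p = 0.771).

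PHO8 encodes the vacuolar alkaline phosphatase. Its signal was 1177 and 1360 in the H3 double mutant, 948.4 and 1004 in the H4 double mutant and 1125 and 1532 in the RPD3 deletion. It was 848.0 and 1383 in the H3 tail deletion, 1324, 1229 and 1128 in the H3 lysine substitution, 618.8 and 722.6 in the H4 tail deletion and 804.3 and 1163 in the H4 lysine substitution, against 735.3, 629.3 and 663.1 in wild type. The wild-type arrays lay close together for PHO8, and arrays of every mutant except the H4 tail deletion were above all 3 of them. PHO8 was 1.88-fold higher in the H3 double mutant (0.91 ± 0.23, adjusted p = 0.0120), 1.95-fold higher in the RPD3 deletion (0.96 ± 0.23, adjusted p = 0.0127) and 1.82-fold higher in the H3 lysine substitution (0.86 ± 0.21, adjusted p = 0.00878).

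The differences of PHO8 were 0.53 in the H4 double mutant, 0.68 in the H3 tail deletion (adjusted p = 0.0684), -0.01 in the H4 tail deletion and 0.52 in the H4 lysine substitution, none called. Under quantile normalization and under median centring PHO8 was called in the H4 lysine substitution. Without wild-type array 2, all 3 PHO8 calls were kept, at 0.86 in the H3 double mutant (adjusted p = 0.0348), 0.91 in the RPD3 deletion (adjusted p = 0.0330) and 0.81 in the H3 lysine substitution (adjusted p = 0.0312). The H3 double mutant call ended without its array 2 (0.80, adjusted p = 0.0874), and the RPD3 deletion call without its array 2 (0.74, adjusted p = 0.164). Without array 1 of the H3 tail deletion, PHO8 was called higher there (1.04, adjusted p = 0.0258). On day B alone PHO8 was 0.89 higher in the H3 double mutant and 1.06 higher in the RPD3 deletion than in wild type. With day as a block the differences were 1.01 (adjusted p = 0.0514) and 1.06 (adjusted p = 0.0649), not called, while the actin ratio as a covariate kept both calls (1.12 and 1.20, adjusted p = 0.00919 and 0.0121). In the H3 lysine substitution the PHO8 call ended with sampling period (0.88, adjusted p = 0.0880) or chip lot (0.83, adjusted p = 0.112) as a block.

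VTC1, VTC3 and VTC4 encode subunits of the vacuolar transporter chaperone complex, which makes polyphosphate, with Vtc4 as the catalytic subunit. The VTC1 signal was 8740 and 6106 in the H3 double mutant, 9764 and 8040 in the H4 double mutant, 9484 and 10769 in the RPD3 deletion and 6336 and 6160 in the H4 lysine substitution, against 11016, 15398 and 9099 in wild type. On the 7 arrays of the other 3 mutants it lay between 8401 and 9554. VTC1 was 1.58-fold lower in the H3 double mutant (-0.66 ± 0.20, adjusted p = 0.0315) and 1.85-fold lower in the H4 lysine substitution (-0.89 ± 0.20, adjusted p = 0.00666), and both groups lay under every wild-type array. Without wild-type array 2, VTC1 was still called in the H4 lysine substitution (-0.68, adjusted p = 0.0208) and no longer in the H3 double mutant (-0.45, adjusted p = 0.105), whose call also ended without its own array 2 (-0.40, adjusted p = 0.291). Without wild-type array 3, VTC1 was called lower also in the H4 double mutant (-0.56, adjusted p = 0.0495), the H3 lysine substitution (-0.53, adjusted p = 0.0422) and the H4 tail deletion (-0.58, adjusted p = 0.0377). Without array 2 those differences were -0.18, -0.15 and -0.21 (adjusted p = 0.551, 0.599 and 0.466). In the H3 double mutant the VTC1 call ended with day as a block (-0.64, adjusted p = 0.121, and -0.85 on day B alone) and with the actin ratio as a covariate (-0.67, adjusted p = 0.0734). In the H4 lysine substitution it ended with sampling period (-0.54, adjusted p = 0.189) or chip lot (-0.55, adjusted p = 0.509) as a block.

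The brighter VTC4 probe set gave 1608, 1617 and 1633 in the H3 lysine substitution and 1552 and 1095 in the H4 lysine substitution, against 2074, 4034 and 2830 in wild type, with no overlap. On the 10 arrays of the other mutants it lay between 1379 and 2462. VTC4 was 1.77-fold lower in the H3 lysine substitution (-0.83 ± 0.25, adjusted p = 0.0267) and 2.20-fold lower in the H4 lysine substitution (-1.14 ± 0.28, adjusted p = 0.00952) by this probe set. The dimmer VTC4 probe set differed by -0.45 (adjusted p = 0.111) and -0.37 (adjusted p = 0.234) in the same groups and was not called. Without wild-type array 2 the brighter probe set of VTC4 was called in the H4 lysine substitution (-0.89, adjusted p = 0.0362) and not in the H3 lysine substitution (-0.58, adjusted p = 0.124). Leaving out array 1, 2 or 3 of the H3 lysine substitution also ended the VTC4 call there (adjusted p = 0.0660, 0.0684 and 0.0617), as leaving out array 2 of the H4 lysine substitution did in that group (adjusted p = 0.103). Without wild-type array 1 the brighter VTC4 probe set was called lower also in the H3 double mutant (-1.01, adjusted p = 0.0180) and the RPD3 deletion (-0.89, adjusted p = 0.0433), and without array 2 the differences there were -0.53 (adjusted p = 0.206) and -0.41 (adjusted p = 0.357). With sampling period as a block neither VTC4 call was kept, at -0.81 in the H3 lysine substitution (adjusted p = 0.205) and -1.12 in the H4 lysine substitution (adjusted p = 0.0957), nor with chip lot (-0.80 and -1.10, adjusted p = 0.297 and 0.378). VTC3 ranged from 327.0 on array 1 of the H4 lysine substitution to 1274 on wild-type array 2 and was not called in any comparison of the reported fit. Its log2 difference from wild type in the H4 lysine substitution was -0.87 (adjusted p = 0.116). With the array number as a block VTC3 was called in that group, although such arrays share only a number.

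The remaining members were dim or variable. PHM8, which encodes a phosphatase of lysophosphatidic acid and nucleotides, gave 999.8 and 632.9 in the H3 double mutant, 722.6 and 727.1 in the H4 double mutant and 1234 and 1476 in the RPD3 deletion. It was 833.3 and 772.4 in the H3 tail deletion, 726.9, 527.7 and 634.4 in the H3 lysine substitution, 1273 and 772.1 in the H4 tail deletion and 1186 and 1262 in the H4 lysine substitution. In wild type PHM8 was 852.2, 234.1 and 833.8, so that a single array, the second, stood far under the others. PHM8 differed from wild type by 1.30 ± 0.44 in the RPD3 deletion (adjusted p = 0.0656) and by 1.15 in the H4 lysine substitution (adjusted p = 0.0712), neither called. Both were called without wild-type array 1 (1.61 and 1.47, adjusted p = 0.0285 and 0.0324) and without wild-type array 3 (1.60 and 1.45, adjusted p = 0.0357 and 0.0282). Without array 2, the low one, they were 0.68 (adjusted p = 0.114) and 0.54 (adjusted p = 0.195). With all arrays, PHM8 was called in the H4 lysine substitution under quantile normalization, under median centring and with the array number as a block. The PHM8 interaction of the RPD3 deletion and the H4 lysine substitution was -2.05 ± 0.66 (adjusted p = 0.112), with -2.37 without wild-type array 1 (adjusted p = 0.0492) and -1.43 without array 2 (adjusted p = 0.0641).

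SPL2, whose product lowers low-affinity phosphate uptake during starvation, was above the floor on 4 of 18 arrays, namely array 1 of the H3 double mutant (207.0), array 2 of the RPD3 deletion (154.5) and wild-type arrays 1 and 2 (167.5 and 193.6). It was not called in any comparison, and no fold is given for it. PHM6, a phosphate-regulated gene whose function is not settled, was under the floor on all 18 arrays, at 12.6 to 137.8. For these genes a lower level would not have been measurable.

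**Figure D4:**
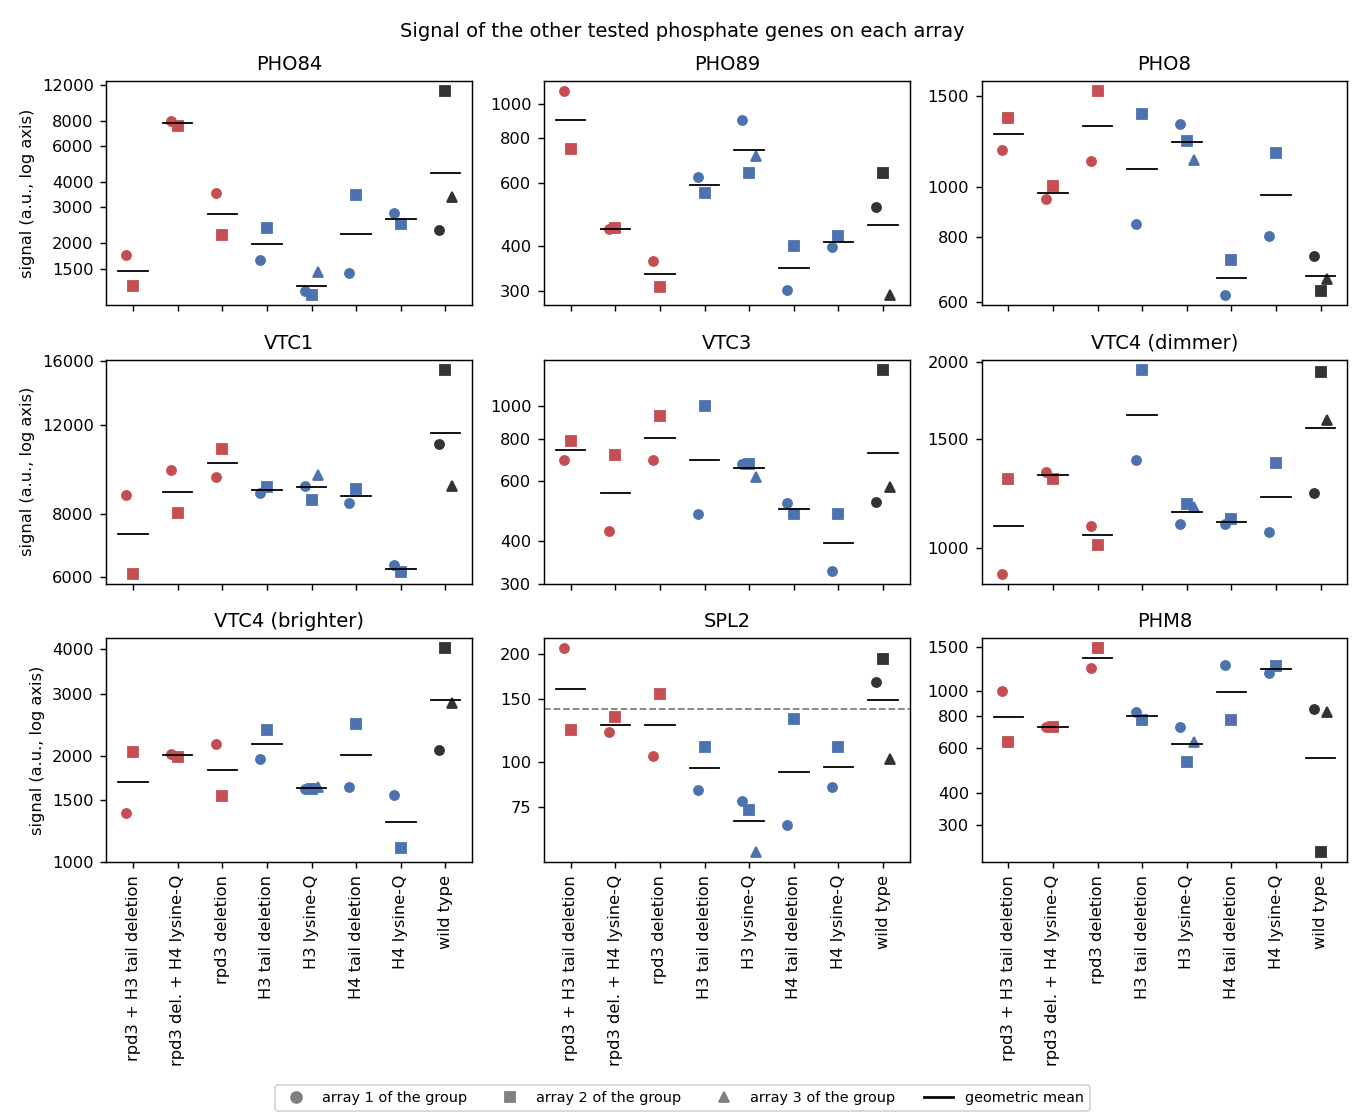
Signals in arbitrary units on log axes (y) of the 9 tested probe sets other than PHO5, by genotype (x). Each symbol is 1 array and lines are geometric means, with RPD3-deleted genotypes in red, histone mutants in blue and wild type in black. The dashed line for SPL2 is the background floor of 140.2, and wild-type array 2 is the highest of all arrays for PHO84, VTC1, VTC3 and the brighter VTC4.

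Counted by gene, with VTC4 taken from its brighter probe set, 5 of the 9 tested members were called against wild type in the H3 double mutant. There PHO5, PHO89 and PHO8 were higher and PHO84 and VTC1 lower, where 23.6% of all tested probe sets were called, 15.4% higher and 8.13% lower. In the H4 double mutant 1 of 9 was called, PHO5, against 24.5% of all probe sets, 11.6% higher and 12.9% lower. The RPD3 deletion had 2 of 9 higher, PHO5 and PHO8, and none lower, against 15.4%, of which 11.2% higher and 4.13% lower. The H3 tail deletion had 1 of 9, PHO5, against 13.6%, of which 10.7% higher and 2.98% lower. The H3 lysine substitution had PHO8 higher and PHO84 and VTC4 lower, 3 of 9 against 25.5%, with 11.8% higher and 13.7% lower.

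The H4 lysine substitution had 2 of 9 members lower, VTC1 and VTC4, against 25.1% of all probe sets called, 8.69% higher and 16.5% lower. The H4 tail deletion had 0 of 9 called, and 0 at an unadjusted p under 0.05 in limma by the probe sets counted. Of all probe sets 27.3% were called, 12.3% higher and 15.1% lower, and none of these 2145 belonged to these genes. The dimmer VTC4 probe set, not counted, differed there by -0.50 (unadjusted p = 0.0382 in limma, adjusted p = 0.106). Between mutants, 1 of 9 was called in the H4 double mutant over the H4 lysine substitution, PHO5, against 3.41% of probe sets. In the H3 double mutant over the RPD3 deletion 1 of 9 was called, PHO89, against 7.22%. The comparisons of the H3 double mutant with the H3 tail deletion (1.34% of probe sets), the H4 double mutant with the RPD3 deletion (17.2%), the H3 tail deletion with the H3 lysine substitution (0.395%) and the H4 tail deletion with the H4 lysine substitution (5.45%) called none. Neither did the interactions (5.18% and 3.16%). By unadjusted p under 0.05 in limma, those 6 sets of members held 0, 1, 0, 0, 2 and 5 genes. The share of all probe sets under that unadjusted threshold was not computed. These counts, and the 0 at that threshold in the H4 tail deletion, are therefore no result about the members.

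The median log2 difference of the 9 tested members from wild type was 0.04 in the H3 double mutant, -0.03 in the H4 double mutant, -0.17 in the RPD3 deletion, -0.07 in the H3 tail deletion, -0.15 in the H3 lysine substitution, -0.40 in the H4 tail deletion and -0.24 in the H4 lysine substitution. The medians over all tested probe sets, in the same order, were 0.03, -0.03, 0.01, 0.00, -0.08, -0.05 and -0.07.

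**Figure D5:**
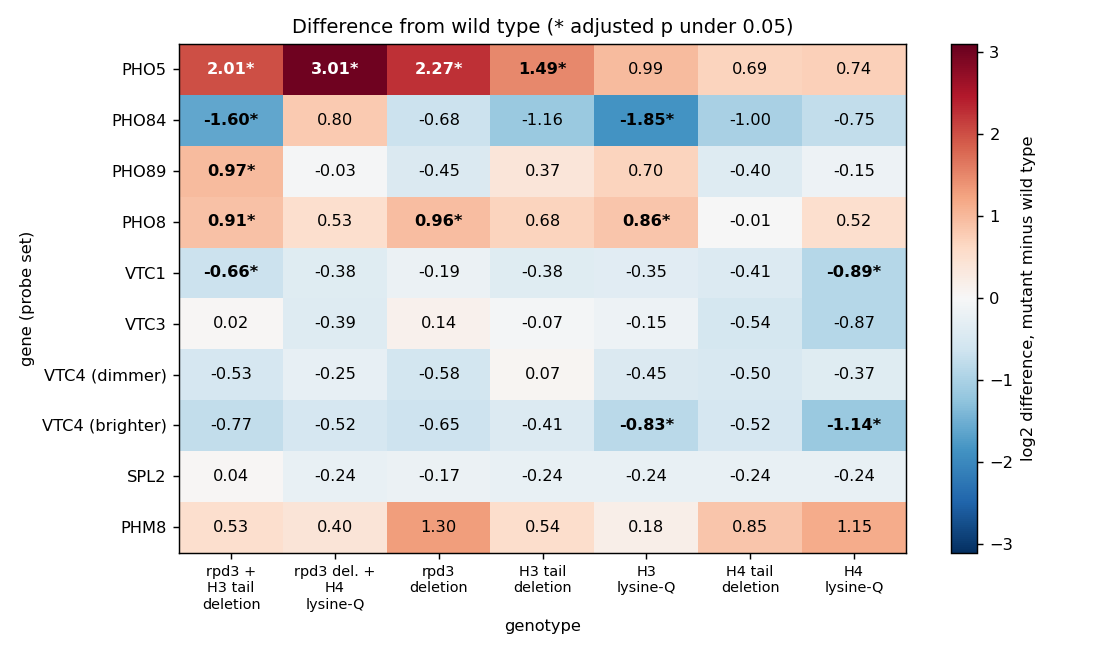
Log2 difference from wild type of the 10 tested probe sets (rows of the map) in the 7 mutants (columns), red for higher and blue for lower in the mutant. Asterisks mark an adjusted p under 0.05: PHO5 is positive in all columns and marked in 4, and PHO84 is marked in 2. All columns share the wild-type arrays, of which array 2 is the lowest of all 18 for PHO5 and the highest for PHO84. SPL2 reads -0.24 where all arrays of the mutant were at the floor.

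Other genes of the pathway were read from lists. Of 10 regulators of the pathway, all tested, none was higher than wild type in any mutant, and 5 were lower in the H3 lysine substitution, 2 in the H4 lysine substitution, 1 in each of the double mutants, the RPD3 deletion and the H4 tail deletion, and 0 in the H3 tail deletion. Of all tested probe sets 13.7% were lower in the H3 lysine substitution, 16.5% in the H4 lysine substitution, 8.13% in the H3 double mutant, 12.9% in the H4 double mutant, 4.13% in the RPD3 deletion, 15.1% in the H4 tail deletion and 2.98% in the H3 tail deletion, so that 1 or 2 of 10 is near the background. The 5 in the H3 lysine substitution were PHO4 (-0.90), the gene of the activator itself, PHO81 (-0.61), the gene of the kinase inhibitor, PHO86 (-0.53), whose product is needed for Pho84 to leave the endoplasmic reticulum, KCS1 (-0.94), an inositol hexakisphosphate kinase gene, and PSE1 (-0.76, adjusted p = 0.000725), whose product imports Pho4 into the nucleus. The median of the 10 there was -0.51, against -0.08 over all tested probe sets. These regulator values come from the reported fit alone, and the other settings were not read for them. With sampling period as a block 677 probe sets were called in this mutant, and with chip lot 430, against 2004 as reported. PSE1 was lower in 5 mutants, among them the H3 double mutant (-0.55), the H4 double mutant (-0.65) and the RPD3 deletion (-0.49).

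Of 5 tested carriers other than the members, SYG1 was lower in the H3 double mutant (-0.70), the H3 tail deletion (-0.78), the H3 lysine substitution (-1.31, adjusted p = 1.92e-05) and the H4 tail deletion (-0.64). SYG1 encodes a plasma membrane protein related to the phosphate exporter family. PHO90, a low-affinity phosphate transporter gene, averaged 4966 ± 94.6 in the H4 double mutant (SD, n = 2; -0.76 log2) and 2931 ± 342 in the H4 lysine substitution (n = 2; -1.53, adjusted p = 0.000267), against 8637 ± 2213 in wild type (n = 3). GIT1, the glycerophosphoinositol transporter gene, was the 1 carrier that was higher, at 430.4 ± 15.8 in the H4 double mutant (1.05) and 554.4 ± 88.6 in the H4 lysine substitution (1.41, adjusted p = 0.00165), against 217.8 ± 83.8 in wild type. In all, 1 carrier was called in the H3 double mutant and 1 in the H3 tail deletion, both lower, 3 were lower in the H3 lysine substitution and 2 in the H4 tail deletion. The H4 double mutant and the H4 lysine substitution had 1 higher and 1 lower each, and the RPD3 deletion had none called. The shares of all probe sets called lower were 13.7% in the H3 lysine substitution and 15.1% in the H4 tail deletion, and 1 of 5 is no result about the carriers.

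Of 5 other polyphosphate genes, PPN2, an endopolyphosphatase gene, averaged 1132 ± 220 in the H3 double mutant, 2231 ± 17.7 in the H4 double mutant and 3263 ± 1245 in the RPD3 deletion, against 1309 ± 555 in wild type. PPN2 rose in the RPD3 deletion (1.34, adjusted p = 0.00901) and was lower in the H3 double mutant than in the RPD3 deletion (-1.49). Its interaction of the RPD3 deletion and the H3 tail deletion was called (-1.88, adjusted p = 0.0307), as that of PHO5, with the same sign, was not. VTC2, another subunit gene of the transporter chaperone complex, was lower in the H3 double mutant (-0.78) and the H4 tail deletion (-0.98), and the other 3 genes of this list were not called against wild type.

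Of 4 tested low-phosphate genes, GPP2, a glycerol-3-phosphatase gene also induced by osmotic stress, was higher in 6 mutants, by 2.22 in the H3 double mutant, 1.14 in the RPD3 deletion, 1.75 in the H3 tail deletion, 2.08 in the H3 lysine substitution, 1.73 in the H4 tail deletion and 0.85 in the H4 lysine substitution. In the H4 double mutant GPP2 was 522.1 ± 3.31, against 565.7 ± 152 in wild type, and was lower than in the H4 lysine substitution (-0.93). GDE1, a glycerophosphocholine phosphodiesterase gene, rose in the H4 double mutant (0.70) and the H3 tail deletion (0.71), and PHM7 was called higher in the H3 double mutant (213.0 and 288.8), but 2 of its 3 wild-type arrays were at or under the floor, so no fold is given. Both tested acid phosphatase genes, PHO3 and DIA3, were not called, and PHO11 and PHO12 shared a probe set and were not read. Of 5 chromatin factor genes that act at the PHO5 promoter, 4 were not called in any mutant against wild type. ASF1, a histone chaperone gene, was higher in the H3 double mutant (0.86) and lower in the H4 lysine substitution (-0.97). In a single mutant 13.6% to 27.3% of all tested probe sets were called against wild type. The share of probe sets not called in any mutant was not computed. The counts of genes not called in the polyphosphate, low-phosphate, acid phosphatase and chromatin lists are therefore no result about these lists.

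The genes whose 8 group means followed PHO5 most closely, among 6079 other probe sets of a single gene, were RCH1 (Pearson r = 0.936), DBP1 (0.935), KTR3 (0.933), VPS17 (0.928) and FPT1 (0.923). DBP1, a gene of a DEAD-box RNA helicase, averaged 510.5 in the H3 double mutant, 498.9 in the H4 double mutant and 428.7 in the RPD3 deletion, against 129.5 in wild type, a mean under the background floor. Among the members the closest to PHO5 was PHO8, at rank 563 (0.61), while PHO84 was at rank 2079 (0.27). Closest to PHO84 were MNC1 (0.961), SNR31 (0.959), YLH47 (0.920), SLX1 (0.914) and RPL37B (0.905). The means of SNR31, from 59.0 to 180.7, were under the floor in 5 of the 8 groups, so its likeness rests on signals near background. These correlations describe 8 points from shared arrays.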

How the data were processed

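Per the labels, total RNA of 8 yeast genotypes was measured on 18 one-colour arrays. The deposited table holds 1 linear intensity, in arbitrary units, for each of 9335 probe sets on each array. As the values show, the authors brought all arrays to the same 2% trimmed mean. Their probe-level software is not given in the sources used here. Chip lots and sample texts came from the run settings, a unit other than signal, per the file headers, and sampling days came from the labels. The members and gene lists were chosen with earlier results of these data known.

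Signals below 140.2, the 25th percentile of all arrays together, were raised to that floor before taking log2. A probe set was tested if above that floor on at least 2 arrays, which 7851 probe sets were. limma 3.58.1 (R 4.3.3) fitted 8 group means over the 18 arrays, with 15 contrasts, a variance trend, 10 residual degrees of freedom and Benjamini-Hochberg adjustment over all tested probe sets at 0.05. Reported folds are those of the fitted geometric means, while ± after a mean signal is its SD. Of 9335 probe sets 60 were controls, 6504 named 1 gene, 328 several and 2443 none, and all 6504 matched a RefSeq gene of assembly R64. A gene with several probe sets was counted by its brightest. Genes named in the text were all members, RPD3, at most 3 genes per list by the smallest adjusted p (with the other called regulators), and the 5 genes most like PHO5 and PHO84. The naming of PHO4 and PHO81 beyond that rule was chosen after their values were seen. The fit was tested on simulated data. In bulk RNA, fewer cells expressing a gene and less RNA per cell cannot be told apart. Precision is limited by having 2 or 3 arrays a group.

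Same-numbered arrays of the H3 double mutant, the RPD3 deletion and the H3 tail deletion came from the same days per the labels. Their deviations from the group means correlated at -0.05 between the H3 double mutant and the RPD3 deletion and at 0.28 between the H3 double mutant and the H3 tail deletion. Alternatives comprised 32 other settings of scale, floor, filter, variance prior, blocks and arrays entered.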

Additional observations from a re-analysis of the deposited data

How the results depend on the processing

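Counts are of the 9 tested members called against wild type unless another pair is named. Quantile normalization and median centring each gave 4 in the H4 lysine substitution in place of 2, adding PHO8 and PHM8. Of all probe sets, they called 2052 and 2116 there (1974 as reported). Day as a block gave 0 in the H3 double mutant (5 as reported), 0 in the RPD3 deletion (2), 0 in the H3 tail deletion (1), and 2 for the H4 double mutant over the H4 lysine substitution (1), PHO5 and PHO84. Of all probe sets, it called 952 in the H3 double mutant (1849 as reported) and 472 in the RPD3 deletion (1207). It called 290 in the H3 tail deletion (1071) and 552 for the H4 double mutant over the H4 lysine substitution (268). Sampling period as a block, which sets each group against 1 or 2 wild-type arrays, gave 0 in the H3 tail deletion and 0 in the H4 lysine substitution. It gave 1 in the H3 lysine substitution, PHO89 (3 as reported), and 2 in the H4 tail deletion, PHO89 and VTC1 (0). For the H3 interaction it gave 1, PHO89 (0). In the H4 tail deletion and the H3 interaction this block sets wild-type array 3 aside, and the same members were called without that array. Of all probe sets, sampling period as a block called 1053 in the H3 tail deletion (1071) and 615 in the H4 lysine substitution (1974). It called 677 in the H3 lysine substitution (2004), 2480 in the H4 tail deletion (2145) and 312 for the H3 interaction (407). Chip lot as a block gave 2 in the H3 double mutant, 0 in the H4 double mutant (1) and 0 in the H4 lysine substitution. For the H4 double mutant over the H4 lysine substitution it gave 0. It gave 1, PHO89, both in the H3 lysine substitution and for the H3 interaction. Of all probe sets, chip lot as a block called 1708 in the H3 double mutant (1849) and 154 in the H4 double mutant (1925). It called 94 in the H4 lysine substitution (1974) and 430 in the H3 lysine substitution (2004). For the H3 interaction it called 161 (407), and for the H4 double mutant over the H4 lysine substitution 351 (268). With the 3 arrays left out that have another strain in their header, the H3 double mutant had 1, the H3 tail deletion 0, the H4 double mutant over the H4 lysine substitution 0 and the H3 double mutant over the RPD3 deletion 0. With the actin 3' to 5' ratio as a covariate, the H3 double mutant had 2, and 1423 of all probe sets were called there (1849). Fitting only the arrays of the groups compared gave 0 in the H3 double mutant, the H4 double mutant, the RPD3 deletion, the H3 tail deletion, the H4 lysine substitution and for the H3 double mutant over the RPD3 deletion, and 1 in the H3 lysine substitution, with fewer arrays behind each spread. Of all probe sets, this fit called 312, 337, 101 and 56 in the first groups named, up to the H3 tail deletion. In the H4 lysine substitution and for the H3 double mutant over the RPD3 deletion it called 0 probe sets, and in the H3 lysine substitution 940. Where calls over all probe sets fell, the lost member calls are no result about these genes.

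The replicate block gave 0 in the H3 tail deletion and 4 in the H4 lysine substitution (VTC1, VTC3, VTC4 and PHM8), where arrays share only a number. Of all probe sets it called 958 and 2337 in these groups (1071 and 1974 as reported). For the pairs that share days, the replicate block left 0 members for the H3 double mutant over the H3 tail deletion and 1, PHO89 (adjusted p = 0.0148), over the RPD3 deletion.

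Leaving out 1 array at a time gave 2 to 6 members in the H3 double mutant, 1 to 2 in the H4 double mutant, 0 to 4 in the RPD3 deletion, 0 to 2 in the H3 tail deletion, 2 to 4 in the H3 lysine substitution, 0 to 2 in the H4 tail deletion and 1 to 4 in the H4 lysine substitution. Between mutants it gave 0 to 1 for the H3 double mutant and 0 to 2 for the H4 double mutant over the RPD3 deletion, 0 to 2 for the H4 double mutant over the H4 lysine substitution, 0 to 1 for the H3 interaction and 0 to 3 for the H4 interaction. No called member changed sign under the settings run, up to 32 for each. The cause of these changes was not tested.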
